A study of Mus musculus with 12 samples.

Results

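A set of 1185 bins of 1 kb was described that held almost no reads in 2 libraries of RGM embryonic stem cells and ordinary read numbers in 2 libraries of Cas9 embryonic stem cells. Each library was divided by its own mean over the autosomal bins, so that a density of 1 is the average autosomal bin. A bin was a member where its density was 0.1 or less in both RGM libraries, anti-FLAG from Gzf1-Flag clone 56 and anti-GZF1 from wild-type cells, and 0.6 or more in both matching Cas9 libraries, anti-FLAG from Gzf1-Flag clone 35 and anti-GZF1 from wild-type cells. The members were 1185 of 2,462,755 autosomal bins (0.0481%), or 0.0703% of the 1,684,631 bins that passed the Cas9 side of the rule. With the lines exchanged, 50 bins (0.00203%) met the rule, 41 of them on chromosome 17. The members were thus chosen by the read densities of these 4 libraries, which are given as a description.

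The study profiled the zinc finger protein GZF1 by chromatin immunoprecipitation and sequencing in mouse embryonic stem cells, from chromatin fixed with formaldehyde and cut with micrococcal nuclease. The table used here holds 8 of the 12 libraries, and the other 4 were not analysed here. RGM cells are labelled 129xCAST, a cross of a laboratory strain with the wild-derived CAST strain, and the strain of the Cas9-GFP line is not given in the labels. The RGM line gave a Gzf1-Flag overexpression library (clone 56, anti-FLAG) and a wild-type library (anti-GZF1), and no RGM input was in the table. The Cas9-GFP line gave a Gzf1-Flag overexpression library (clone 35, anti-FLAG), a wild-type, a control and a Gzf1 knockout library (all anti-GZF1), a wild-type H3K27ac library and an input without antibody. Gzf1-Flag was expressed ectopically, and each overexpression library came from 1 clone. Every group had 1 library, so no difference has a replicate check, no test was run, and line, clone and library cannot be told apart. The cell type could not be checked against markers because the libraries measure DNA.

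The mm10 reference was built from the C57BL/6J strain, and inbred mouse strains often differ from it in gene families that sit in tandem arrays and gain or lose copies. The gene family with the most members was Skint, whose genes encode butyrophilin-like membrane proteins of the skin and thymus. Skint1 is known for the selection of the gamma delta T cells that live in the mouse epidermis. A bin without reads shows only that no reads were placed there. DNA that is absent and DNA whose reads did not align to mm10 cannot be told apart from these counts.

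The sequences shown here are the 250 bases before the annotated gene start, 5′ to 3′ on the strand of the gene, from RefSeq on GRCm38.p6, the assembly named mm10. Skint6 (chr4:113286974-113287223, minus strand) and Skint5 (chr4:113999504-113999753, minus strand) are shown as a pair because they were the closest of the 55 pairs of Skint promoters. Capitals mark the 28 of 250 positions at which they differ.
Skint6: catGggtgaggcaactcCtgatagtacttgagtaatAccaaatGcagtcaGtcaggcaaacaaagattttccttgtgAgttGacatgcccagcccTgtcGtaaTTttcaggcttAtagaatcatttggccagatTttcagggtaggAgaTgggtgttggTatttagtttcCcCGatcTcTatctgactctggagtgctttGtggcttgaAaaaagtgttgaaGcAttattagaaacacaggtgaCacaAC
Skint5: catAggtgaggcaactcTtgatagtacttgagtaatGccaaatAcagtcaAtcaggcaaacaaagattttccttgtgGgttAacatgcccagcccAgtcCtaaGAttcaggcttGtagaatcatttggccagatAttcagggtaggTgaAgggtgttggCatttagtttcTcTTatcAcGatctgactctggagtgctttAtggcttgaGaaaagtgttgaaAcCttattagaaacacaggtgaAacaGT
The bases outside the capitals are shared, and the identity of the pair after global alignment was 88.8%, against 43.4% to 57.8% for the other 54 pairs. The 1 kb bin at the Skint6 start held 32 and 26 reads in the Cas9 anti-FLAG and wild-type anti-GZF1 libraries, and 0 and 2 reads in the RGM anti-FLAG and wild-type libraries. The bin at the Skint5 start held 15 and 11 reads in the same Cas9 libraries, and 13 and 0 reads in the RGM libraries. Neither bin was a member, and the 2 RGM libraries were in opposite order at the 2 starts.

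Of 31,396 autosomal RefSeq promoters, 6 (0.0191%) started in a member bin, those of Skint9, Ugt2b38, Vmn2r67, Defa30, Gm2897 and Gm3239. Skint9, Ugt2b38 (a UDP glucuronosyltransferase of xenobiotic metabolism) and Gm2897 (a predicted gene) are shown for the range of CG counts among these 6. Skint1 is shown as a Skint promoter that kept reads in RGM. Capitals mark the dinucleotide CG, which reads the same on both strands.
Skint9: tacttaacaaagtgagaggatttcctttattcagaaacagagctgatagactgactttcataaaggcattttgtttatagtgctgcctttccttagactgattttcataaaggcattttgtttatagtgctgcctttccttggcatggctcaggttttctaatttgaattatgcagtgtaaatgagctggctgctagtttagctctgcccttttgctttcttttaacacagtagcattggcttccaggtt
Skint1: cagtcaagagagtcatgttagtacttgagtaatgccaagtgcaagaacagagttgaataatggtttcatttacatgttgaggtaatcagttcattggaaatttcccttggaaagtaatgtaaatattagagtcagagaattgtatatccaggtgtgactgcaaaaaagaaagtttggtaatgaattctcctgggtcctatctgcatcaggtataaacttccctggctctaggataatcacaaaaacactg
Ugt2b38: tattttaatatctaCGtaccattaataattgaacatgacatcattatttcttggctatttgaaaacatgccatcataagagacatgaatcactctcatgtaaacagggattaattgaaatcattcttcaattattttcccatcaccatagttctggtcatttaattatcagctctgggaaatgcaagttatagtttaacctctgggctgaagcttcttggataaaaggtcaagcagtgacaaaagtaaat
Gm2897: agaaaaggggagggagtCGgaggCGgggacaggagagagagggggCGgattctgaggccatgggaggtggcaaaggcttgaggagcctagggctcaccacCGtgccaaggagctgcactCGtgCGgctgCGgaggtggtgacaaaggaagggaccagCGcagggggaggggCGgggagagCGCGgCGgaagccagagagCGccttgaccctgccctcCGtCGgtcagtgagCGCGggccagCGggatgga
These stretches lie at chr4:112433986-112434235 (minus strand), chr4:112006019-112006268 (plus strand), chr5:87424204-87424453 (minus strand) and chr14:3049035-3049284 (plus strand). The 250 bases held 0 CG in Skint9 and Skint1, 1 in Ugt2b38 and 18 in Gm2897, whereas Gm3239 held 17 and Vmn2r67 and Defa30 held 2 each. At least 1 CG occurred in 92.4% of all promoters, the median was 6, and 28.7% held 2 or fewer, as did all 11 Skint genes. The Skint9 start bin held 27.8 and 19.5 reads in the Cas9 rule libraries and 2 and 0 in RGM. At the Skint1 start the same libraries held 41.5 and 21.5 reads in Cas9 and 18.2 and 3 in RGM, so the promoter of this gene did not stand empty. At the Gm2897 start they held 42.1 and 26.3 reads in Cas9 and 0 and 0 in RGM.

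The Skint gene cluster on chromosome 4 held 295 of the 1185 members (24.9%). Its 11 annotated genes span chr4:111919555-114245028, an interval of 2327 bins. Over this interval the density was 0.727 and 0.682 in the Cas9 anti-FLAG and wild-type libraries, and 0.126 and 0.194 in the RGM anti-FLAG and wild-type libraries. The Cas9 libraries that the rule did not use had 0.748 (control), 0.742 (knockout), 0.712 (H3K27ac) and 0.708 (input). All 6 Cas9 libraries therefore lay above both RGM libraries over the whole interval. At its 295 members the rule set this order for the rule libraries. In the RGM anti-FLAG library 1603 of the 2327 bins had a density of 0.1 or less, against 52 bins in the Cas9 anti-FLAG library. In the 1 Mb before the interval the RGM density was 0.870 times (95% exact binomial interval 0.854 to 0.886) the Cas9 density with anti-FLAG, and in the 1 Mb after it 0.926 times (0.911 to 0.941). Within the interval it was 0.173 times (0.169 to 0.177). Such intervals take in the error of counting and nothing else, since reads amplified from 1 molecule may be counted separately.

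**Figure D1:**
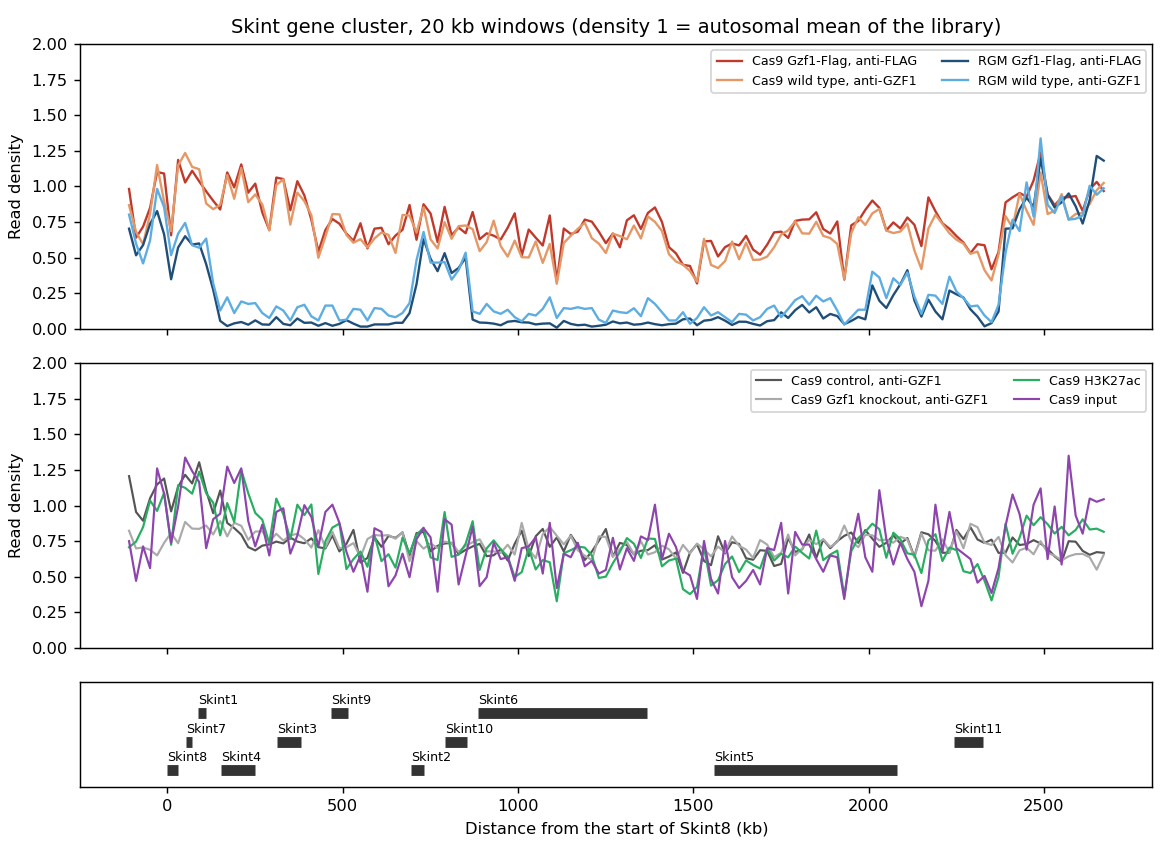
Read density in 20 kb windows along the Skint cluster, against the distance in kb from the start of Skint8 (density 1 is the autosomal mean of a library), with the rule libraries above, the other Cas9 libraries in the middle and the genes below. Both RGM lines drop near the start of Skint4, return over Skint2 and Skint10, drop again with a partial return to 0.411 (anti-FLAG) near 2110 kb, and rise at about 2390 kb, while the Cas9 anti-FLAG line stays at 0.318 or more.

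The lack of RGM reads within the cluster was not uniform, and the genes fell into 3 kinds. Skint8, Skint7 and Skint1, the first 3 genes in chromosome order, held no member. Skint1 (chr4:112006269-112029538) had densities of 1.1 and 1.07 in the Cas9 anti-FLAG and wild-type libraries, 1.27 in the control, 0.839 in the knockout, 1.22 with H3K27ac, 0.945 in the input, and 0.674 and 0.677 in the RGM anti-FLAG and wild-type libraries. Its RGM density was thus below all 6 Cas9 values but far from 0. The RGM to Cas9 ratio of Skint1 was 0.613 (0.542 to 0.692) with anti-FLAG and 0.636 (0.525 to 0.765) with wild-type anti-GZF1. Skint8 (chr4:111919555-111950361) had ratios of 0.551 and 0.736, and Skint7 (chr4:111972924-111988260) of 0.607 and 0.651.

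Skint4, Skint3 and Skint9 came next and were nearly empty in RGM. Skint4 (chr4:112072016-112168076) held 31 members among 97 bins. Its density was 1.05 and 1.00 in the Cas9 anti-FLAG and wild-type libraries, 0.821 in the control, 0.831 in the knockout, 1.04 with H3K27ac, 1.12 in the input, and 0.0393 and 0.175 in the RGM anti-FLAG and wild-type libraries. In reads, this was 2764 and 2293 in the Cas9 rule libraries against 101 and 146 in RGM, and the ratio was 0.0376 (0.0305 to 0.0458) with anti-FLAG and 0.174 (0.147 to 0.206) with wild-type anti-GZF1. The 6 Cas9 values did not overlap the 2 RGM values. Skint3 (chr4:112232245-112300468) held 21 members among 69 bins, with ratios of 0.0529 and 0.128. Skint9 (chr4:112385969-112433985) held 14 among 49, with ratios of 0.0489 and 0.127. Because the members were chosen for low RGM density, these gene-wide ratios are partly fixed by the rule, although they also take in the bins of each gene that are no members.

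Reads returned in the middle of the cluster. Skint2 (chr4:112613598-112652248) held 3 members and Skint10 (chr4:112710830-112774861) held 1. Skint10 had densities of 0.697 and 0.705 in the Cas9 anti-FLAG and wild-type libraries, 0.694 in the control, 0.717 in the knockout, 0.689 with H3K27ac, 0.709 in the input, and 0.474 and 0.444 in the RGM libraries. Its ratio was 0.679 (0.621 to 0.743) with anti-FLAG, the highest of the 11 genes, and 0.628 (0.545 to 0.722) with wild-type anti-GZF1. Skint2 had ratios of 0.515 and 0.516. The counting intervals of Skint10 and of Skint1, on the other side of the empty stretch, overlapped.

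Skint6, Skint5 and Skint11 form the far side. Skint6 (chr4:112804616-113286973) held 66 members among 483 bins, the most of any Skint gene. Its density was 0.668 and 0.603 in the Cas9 anti-FLAG and wild-type libraries, 0.713 in the control, 0.723 in the knockout, 0.626 with H3K27ac, 0.632 in the input, and 0.0358 and 0.12 in the RGM libraries. Both RGM values were far below the 6 Cas9 values, an order partly fixed by the rule. The ratio was 0.0536 (0.0487 to 0.0589) with anti-FLAG and 0.20 (0.182 to 0.219) with wild-type anti-GZF1. Skint5 (chr4:113477891-113999503) held 48 members among 523 bins, and its anti-FLAG ratio of 0.145 (0.137 to 0.154) lay above that of Skint6. Skint11 (chr4:114163384-114245028) held 2 members, with ratios of 0.266 (0.236 to 0.300) and 0.347 (0.289 to 0.414).

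**Figure D2:**
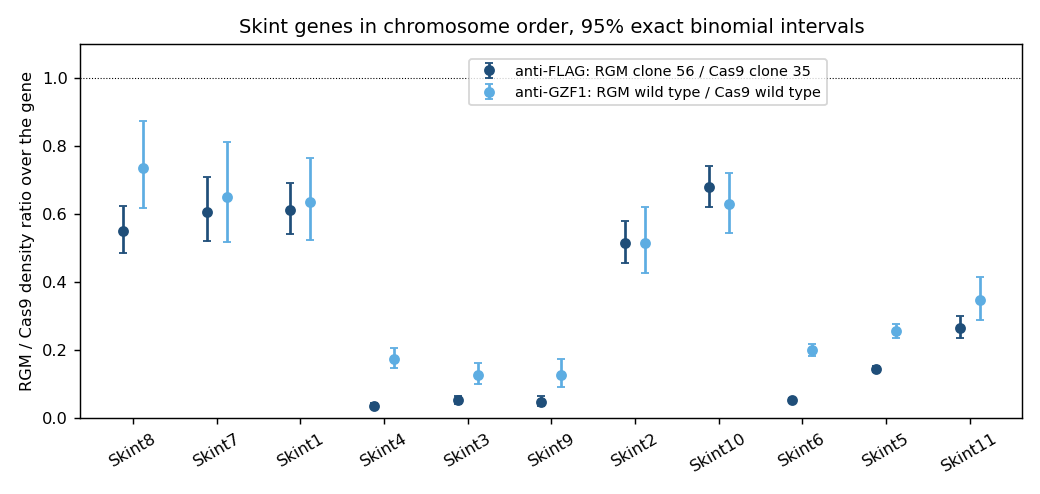
RGM to Cas9 density ratio of each Skint gene in chromosome order (ratio 1 is equal density), points with 95% exact binomial intervals, dark for anti-FLAG and light for wild-type anti-GZF1. Skint4, Skint3, Skint9 and Skint6 lie lowest, and the light points lie above the dark ones in each of these 4 genes.

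The edges of the empty stretches were narrow. In windows of 20 kb, the RGM anti-FLAG density was 0.453 from 112020001, 0.274 from 112040001, 0.0548 from 112060001 and 0.0189 from 112080001 on chromosome 4. The Cas9 anti-FLAG density of the same windows was 0.965, 0.899, 0.838 and 1.1, so the step was in RGM and not in Cas9. The first empty window holds the start of Skint4. The stretch with reads began in the window from 112620001 (RGM anti-FLAG 0.314, wild type 0.482) and ended after the window from 112760001 (0.499 and 0.534), since the next window had 0.0642 and 0.122. The second empty stretch was not continuous, since the RGM anti-FLAG density came back to 0.304 from 113920001 and to 0.411 from 114020001, where Cas9 anti-FLAG had 0.900 and 0.781. Cas9 anti-FLAG itself fell to 0.331, 0.318 and 0.345 in the windows from 113020001, 113420001 and 113840001. At the far end the RGM anti-FLAG density was 0.121 in the window from 114280001 and 0.703 in the next, beyond the end of Skint11.

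The wild-type RGM library had a higher density in the empty stretches than the anti-FLAG RGM library. From the start of Skint4 to the end of Skint9 the density was 0.0396 (95% exact Poisson interval 0.0357 to 0.0437) in the anti-FLAG and 0.132 (0.119 to 0.145) in the wild-type RGM library, from 379 and 411 reads. The Cas9 rule libraries had 0.885 and 0.861 there. The wild-type RGM library was the shallower, with 21.8 M reads against 67.0 M, and came from cells without Gzf1-Flag. The part of depth, clone and antibody in this difference was not tested.

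Away from the Skint interval lay 890 members, and they were scattered. Merging members at most 5 kb apart gave 775 regions on 18 of the 19 autosomes, of which 598 were 1 bin, 144 had 2 to 4 members and 33 had 5 or more. Only 7 regions held 10 or more members, and 5 of these lie in the Skint interval. The region with the most members covered Skint3 (chr4:112270001-112318000, 15 members), followed by one in Skint4 (chr4:112112001-112138000, 14) and another at Skint3 (chr4:112228001-112263000, 13). The 2 outside the cluster were chr13:61969001-61991000 at the pseudogene Gm21935 (11 members) and chr8:19339001-19371000 (10 members). By chromosome, 348 members were on chromosome 4 (0.309% of its bins present in Cas9), 110 on 5 (0.0869%), 104 on 8 (0.106%), 101 on 7 (0.0997%), 98 on 14 (0.116%), 86 on 13 (0.124%) and 60 on 17 (0.0839%), against 0.0703% over all autosomes.

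Many regions lay close to each other, since each bin had to meet all 4 limits. When members at most 100 kb apart were joined, a distance set after seeing the data, 31 of 494 blocks held 5 or more members, with 577 members (48.7%) between them. The anti-FLAG RGM to Cas9 ratio over these whole blocks ran from 0.0282 to 0.651 with a median of 0.156, and 19 of the 31 lay below 0.25. The ratio with wild-type anti-GZF1 ran from 0.129 to 0.787 with a median of 0.253. In 28 of the 31 blocks the wild-type RGM library had a higher density than the anti-FLAG RGM library, as in the Skint cluster. The members themselves had the reverse order, 0.00162 in wild type and 0.0344 with anti-FLAG. The blocks were built from the values of these libraries, and the share over all windows was not computed. The count of 28 is thus a description. The 2 largest blocks were both in the Skint interval, chr4:112757001-114209000 with 157 members and chr4:112051001-112647000 with 138.

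**Figure D3:**
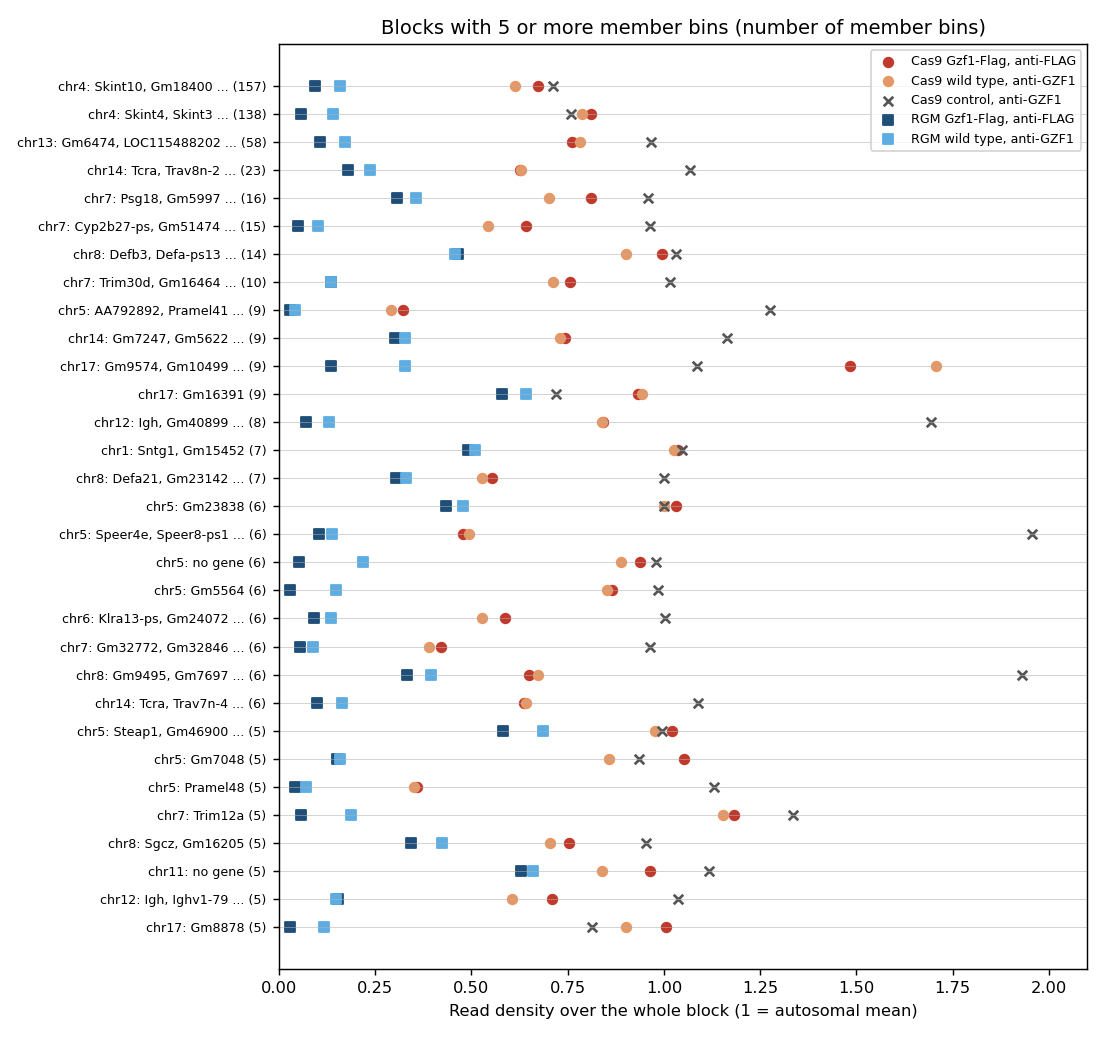
Read density (1 is the autosomal mean) over each of the 31 blocks with 5 or more members, circles for the Cas9 rule libraries, squares for the RGM libraries and crosses for the Cas9 control, with the leading genes and the number of members at the left. The squares lie left of the circles in every block, as the rule requires of their members, and the crosses lie far right of the circles in several blocks, such as those of Speer and Pramel genes on chromosome 5.

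The third block was on chromosome 13 (chr13:61668001-62066000, 58 members) and holds pseudogenes and predicted genes, among them Gm9595, Gm7240, BC052688 and Gm21935. Its density was 0.761 and 0.781 in the Cas9 anti-FLAG and wild-type libraries, 0.967 in the control, 0.991 in the knockout, 0.786 with H3K27ac, 0.749 in the input, and 0.107 and 0.172 in the RGM libraries. As in Skint, every Cas9 value lay above both RGM values, with an anti-FLAG ratio of 0.141 (0.132 to 0.150). The pseudogene Gm7240 (chr13:61804258-61916728) alone held 16 members, with a ratio of 0.106 (0.0937 to 0.12).

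Of 674 immunoglobulin and T cell receptor genes and segments 9 had a member (1.34%), against 0.497% of all genes. Of 50 genes whose symbols mark them as MHC genes (H2-) none did, a count that leaves out predicted genes in or near the MHC. These 50 genes had only 244 bins present in Cas9, so their 0 does not set them apart. The T cell receptor alpha locus Tcra, whose gene segments are joined to make the receptor, held 30 members. In its block of variable segments at chr14:53343001-53750000 (23 members) the Cas9 rule libraries had 0.627 and 0.628 and the RGM libraries 0.181 and 0.238. The immunoglobulin heavy chain locus Igh held 24 members, and the block at Ighv1-23 and its neighbours (chr12:114760001-114792000, 8 members) had 0.842 and 0.840 in Cas9 and 0.0708 and 0.131 in RGM. These 2 loci are long, and over their whole length the anti-FLAG ratio was 0.661 (0.65 to 0.673) for Tcra and 0.696 (0.685 to 0.706) for Igh. Of 27 killer cell lectin-like receptors, by which natural killer cells read MHC molecules, 3 had a member, and the block at Klra13-ps and Klra3 (chr6:130287001-130361000, 6 members) had a ratio of 0.156 (0.133 to 0.183). Predicted genes, which were sorted by symbol and not by locus, gave 2 blocks on chromosome 17. Gm8909 lay in a block (chr17:36137001-36182000, 9 members) with above-average Cas9 densities of 1.48 and 1.71 and RGM densities of 0.134 and 0.328, a ratio of 0.0906 (0.0766 to 0.106). Another block on this chromosome at Gm8878 (chr17:36748001-36764000, 5 members) had the lowest ratio of the 31, 0.0282 (0.0144 to 0.0497).

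The TRIM proteins of the chromosome 7 array are known as ring-finger proteins that act against viruses. Trim12a (chr7:104299893-104315558) held 3 members among 17 bins, with 527 and 451 reads in the Cas9 rule libraries and 29 and 25 in RGM. Its density was 1.14 and 1.12 in those Cas9 libraries, 1.3 in the control, and 0.0645 and 0.171 in RGM, so the anti-FLAG ratio was 0.0566 (0.0375 to 0.0822). Trim30d in the same array kept more reads over the gene (ratio 0.431, 0.381 to 0.486), and the block that starts in it (chr7:104493001-104546000, 10 members) had a ratio of 0.180 (0.154 to 0.210).

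Of 134 cytochrome P450 genes 5 had a member (3.73%), of 44 UDP and sulfo transferase genes 2 (4.55%) and of 20 carboxylesterase genes none, against 0.497% of all genes. The carboxylesterases had only 294 bins present in Cas9, so their 0 does not set them apart. Cyp2b13 (chr7:26061388-26096197), a cytochrome P450 of the liver, had 8 members among 36 bins. It had 754 and 568 reads in the Cas9 rule libraries, 1258 in the control, and 46 and 30 in RGM. In density this was 0.770 and 0.670 in Cas9, 0.977 in the control, and 0.0483 and 0.0968 in RGM, with an anti-FLAG ratio of 0.0627 (0.0455 to 0.0845). Its block (chr7:26009001-26123000, 15 members) was similarly low, at 0.0753 (0.0632 to 0.0891). Ugt2b38 held 1 member, at its start, and its gene-wide ratio was 0.642 (0.546 to 0.754).

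Of 29 Psg and Ceacam genes 3 had a member (10.3%), of 50 PRAME-like genes 3 (6.0%) and of 15 Speer genes 1 (6.67%), against 0.497% of all genes. Of 53 Obox and Rhox genes of germ cells and early embryos none did. These had only 29 bins present in Cas9, so their 0 does not set them apart. The pregnancy-specific glycoproteins, which the placenta secretes, lay in a block at chr7:18341001-18598000 (16 members) with a ratio of 0.377 (0.358 to 0.397), in which Psg18 and Psg26 held 1 member each. A block on chromosome 5 with AA792892 and Pramel41, of the PRAME-like family that is expressed in germ cells and early embryos (chr5:94366001-94501000, 9 members), had 0.322 and 0.291 in the Cas9 rule libraries, 0.0274 and 0.0422 in RGM, and 1.28 in the Cas9 control. The block with Speer8-ps1 (chr5:14923001-15030000, 6 members), of a family expressed in the testis, had 0.477 and 0.494 in the Cas9 rule libraries, 0.103 and 0.138 in RGM, and 1.95 in the control. In these 2 blocks the density of the control was further from the Cas9 rule libraries than these were from RGM. Zscan4d, a zinc finger gene of early embryos, held 1 member among 6 bins, with ratios of 0.286 (0.179 to 0.442) and 0.765 (0.434 to 1.29), the latter with an interval that includes 1.

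Defensins, the antimicrobial peptides of gut and skin, had 2 genes with a member among 83 (2.41%, against 0.497% of all genes), Defa30 and Defa38. Defa30 (chr8:21134650-21135598) had 31 and 40.4 reads in the Cas9 rule libraries and 0 in both RGM libraries, where a count of 0 allows up to 3 reads. A block of 14 members whose span takes in Defb3 (chr8:19261001-19450000), with no member in a beta-defensin gene, kept a density of 0.466 and 0.457 in RGM against 0.995 and 0.902 in Cas9.

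Some members lay in long genes that were otherwise covered. Sntg1 (chr1:8359739-9301657), a syntrophin of the brain, held 12 members among 943 bins, and its density was 1.13 and 1.06 in the Cas9 rule libraries, 1.09 in the control, and 0.630 and 0.651 in RGM. Sgcz (chr8:37517840-38661705), a sarcoglycan, held 5 members among 1145 bins, with a ratio of 0.670 (0.658 to 0.684). At such genes the members were a small share of the bins.

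Counted over the annotation, 234 of 47,042 autosomal genes (0.497%) had a member bin, of which 126 were protein-coding, 57 pseudogenes and 38 long non-coding RNA genes. The share in annotated genes was 45.2% for members (536 of 1185) and 56.6% for the bins present in Cas9. The share in pseudogenes was 8.44% for members (100 bins) and 1.21% for the bins present in Cas9. The difference of these shares was not tested. By family, 8 of 11 Skint genes had a member bin, with 186 members, or 28.3% of their bins present in Cas9. The counts were 9 of 674 for immunoglobulin and T cell receptor genes and segments, 5 of 134 for cytochromes P450, 7 of 623 for vomeronasal receptors (pheromone receptors of the nose), 7 of 407 for Zfp genes, 3 of 27 for killer cell lectin-like receptors, 3 of 50 for PRAME-like genes and 3 of 29 for Psg and Ceacam genes. The largest family, with 1420 olfactory receptor genes, had 1. Of bins present in Cas9, members were 0.0644% for Zfp genes and 0.0474% for olfactory receptors, not above the 0.0703% of all such bins. The share was 0.303% for vomeronasal receptors, 0.52% for cytochromes P450 and 1.71% for immunoglobulin and T cell receptor genes. For killer cell lectin-like receptors, PRAME-like genes, and Psg and Ceacam genes it was 1.64%, 3.77% and 1.19%, from only 3, 4 and 4 members. No gene with a member bin was found among 50 MHC, 53 Obox and Rhox, 38 kallikrein, 68 serpin, 28 NLR and NAIP, 20 carboxylesterase, 18 interferon-inducible GTPase, 14 Ifi200, 11 Slfn, 11 Fc receptor, 10 BTN, 4 Sirp, 4 Sp100, 22 major urinary protein, 56 keratin-associated and 1093 microRNA genes. Families were set by gene symbol, the MHC by symbols that begin with H2-, and predicted genes by symbol whatever their locus. A family with few bins present in Cas9 had few bins that could become members. Examples are the 64 of the major urinary proteins and the 29 of Obox and Rhox. Of the families without a member, microRNA genes had the most such bins, 1466. Since 0.0703% of all bins present in Cas9 were members, none of these zeros sets a family apart.

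At the scale of 100 kb, 25 of 23,447 windows (0.107%) with a Cas9 density of 0.4 or more in both rule libraries had 0.2 or less in both RGM libraries. Of these, 16 were in the Skint interval. The other 9 were on chromosomes 5 (2 windows), 6, 7, 12, 13 (3 windows) and 14. With the lines exchanged there was 1 window.

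The 4 Cas9 libraries that the rule did not use held reads in all members (control and knockout), in all but 3 (H3K27ac) and in all but 203 (input). The members' density was 0.969 (95% exact Poisson interval 0.959 to 0.978) in the control, 0.995 (0.985 to 1.01) in the knockout, 0.773 (0.761 to 0.786) with H3K27ac and 0.779 (0.754 to 0.805) in the input. In the rule libraries it was 0.894 in both Cas9 libraries, 0.0344 in RGM anti-FLAG and 0.00162 in RGM wild type, the last from 16.5 reads. None of the 1185 members had a density of 0.1 or less in the control or in the knockout, against 0.000416% and 0.00237% of all bins present in Cas9. A count of 0 of 1185 allows a share of up to 0.253%, far above these background shares, so the 0 does not set the members apart. The lowest member had 0.224 in the control and 0.235 in the knockout. With H3K27ac 4 members (0.338%) were at 0.1 or less, against 0.086% of bins present in Cas9, and in the input 208 (17.6%, exact binomial interval 15.4% to 19.8%) against 8.03%. The input had only 3.93 reads in an average autosomal bin.

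**Figure D4:**
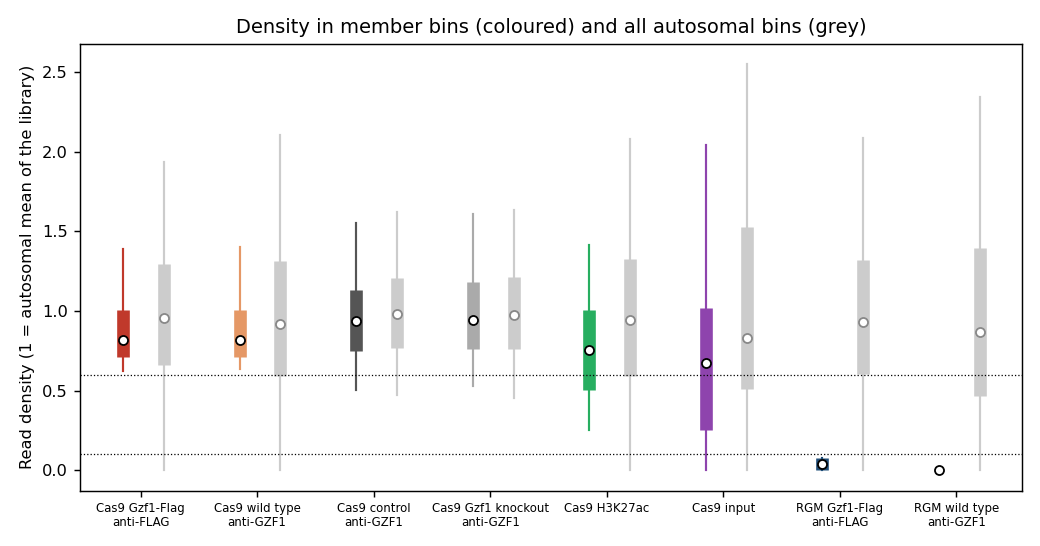
Read density (1 is the autosomal mean) of the 1185 members in each library in colour and of all autosomal bins in grey, with circles for medians, boxes for the interquartile range, lines from the 5% to the 95% point, and dotted lines at the limits of 0.1 and 0.6. The member medians lie between 0.675 and 0.941 in the 6 Cas9 libraries, and at 0.0378 and 0 in RGM.

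The control and knockout libraries stood apart from the other Cas9 libraries in bins that were empty in those libraries. Of 137,879 bins at 0.1 or less in both Cas9 rule libraries, 52,001 (37.7%) had 0.6 or more in the control and 55,853 (40.5%) in the knockout, but only 32 (0.0232%) with H3K27ac and 355 (0.257%) in the input. Among the members, 228 (19.2%) had a control density at least 1.5 times that of Cas9 wild type, and 13 of the 31 blocks did. How reads that align to several places were treated is not given in the sources used here, and its part in these values was not tested. The member densities with H3K27ac and input do not rest on the control and knockout libraries. Members in the Skint interval had a lower control density (0.734) than members elsewhere (1.05), whereas the Cas9 anti-FLAG density was 0.907 and 0.890.

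Missing reads in RGM were not confined to members. Of all autosomal bins, 162,294 (6.59%) had 0.1 or less in both RGM libraries, and 129,883 of these had 0.1 or less in both Cas9 rule libraries too. There were 26 members with an RGM anti-FLAG density of 0.08 to 0.1 and 239 bins just outside, above 0.1 to 0.12, and these numbers follow the steps of whole reads, since 3 reads give 0.113. There were 250 members whose lower Cas9 density was 0.6 to 0.65 beside 455 bins at 0.55 to 0.6. In the wild-type RGM library, whose average bin had 8.61 reads, 0.1 is less than 1 read. Of the members, 1148 had no read there at all, and 2119 bins that met the rest of the rule were left out because this library held reads in them.

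Bins chosen with the libraries of 1 antibody were then measured in the libraries of the other, a comparison added after seeing the data. The 6326 bins that met the rule with anti-FLAG alone had a wild-type density of 0.217 (0.213 to 0.221) in RGM and 0.672 (0.668 to 0.676) in Cas9. In 4526 of them (71.5%) the wild-type RGM density was 0.25 or less, against 7.32% of all bins present in the Cas9 anti-FLAG library. The latter had a wild-type density of 1.15 in Cas9, above that of the chosen bins, so these shares compare bins of unlike coverage. The 28,185 bins chosen with wild-type anti-GZF1 alone had an anti-FLAG density of 0.615 in RGM and 0.819 in Cas9. In RGM 15.8% of them were at 0.25 or less, against 1.19% of all bins present in the Cas9 wild-type library. The latter had an anti-FLAG density of 1.17 in Cas9, again above that of the chosen bins. For the 505 bins so chosen in the Skint interval the anti-FLAG density was 0.0697 (0.0653 to 0.0744) in RGM and 0.801 (0.786 to 0.816) in Cas9. In RGM 94.3% were at 0.25 or less. For the 27,680 elsewhere the densities were 0.625 and 0.820, and the share was 14.4%. Most bins outside the Skint interval that were chosen as empty in the shallow wild-type RGM library were thus covered in the deeper RGM library. In some blocks elsewhere they need not be, since the bins that are no members had RGM anti-FLAG densities of 0.053 in the Cyp2b13 block and 0.119 in the largest block of chromosome 13.

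The surroundings of members differed between the Skint interval and the rest. Among the 295 Skint members, the median RGM anti-FLAG density of the bins 10 kb away on either side was 0.0378, and that of the members themselves was 0. Among the 890 others it was 0.0378 at the member, 0.0756 at 1 kb on both sides, 0.378 and 0.424 at 10 kb before and after, and 0.491 and 0.480 at 20 kb. The Cas9 anti-FLAG median at the same 20 kb distances was 0.846 and 0.809. The value at the member itself is set by the rule, so a dip there follows from the choice of bins. Outside the cluster, the median RGM anti-FLAG density around members was thus below that of Cas9 out to 20 kb.

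**Figure D5:**
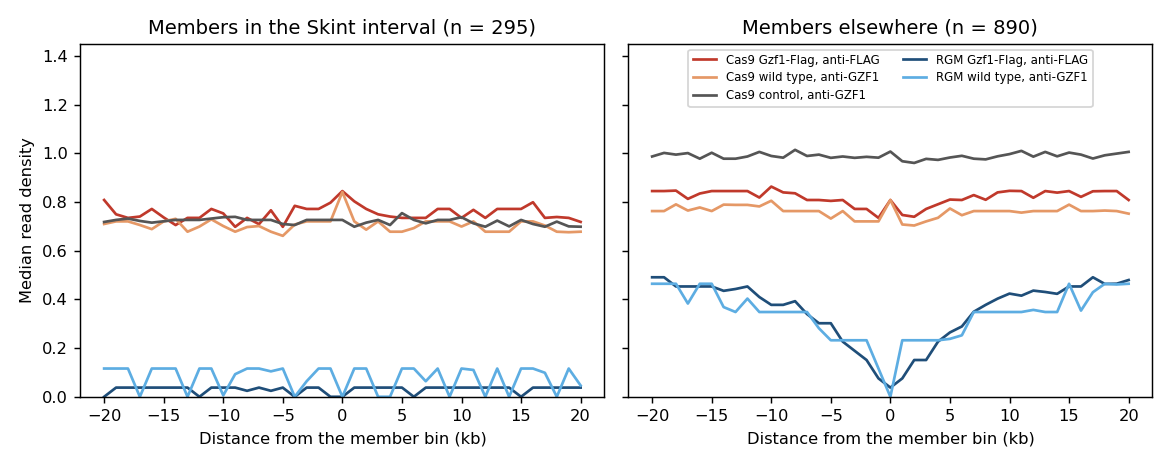
Median read density (1 is the autosomal mean) of bins by their distance in kb from a member, at the left for the 295 members in the Skint interval and at the right for the 890 elsewhere, 1 line per library. The RGM lines stay near 0 at the left and climb to 0.491 and 0.480 (anti-FLAG) at 20 kb at the right, while the Cas9 lines stay level. The values of the rule libraries at distance 0 are bound by the rule.

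GZF1 and H3K27ac signal at members in Cas9 cells was measured over the input and over the neighbouring bins. Of 967 members with an input density of 0.25 to 3, 1 had an anti-FLAG log2 ratio over input of 2 or more (pseudocount 0.5), against 0.0201% of all bins passing that filter. None did with wild-type anti-GZF1 (0.0311% of all bins) or with H3K27ac (0.0323%). At such background shares, counts of 0 and 1 among 967 bins are too few to set the members apart. The median log2 ratio of members was 0.13, 0.09 and -0.08 in the 3 libraries, against -0.02, -0.04 and -0.03 over all bins. The member with the highest Cas9 anti-FLAG density was chr17:36153001-36154000 in Gm8909, at 2.84, with 2.39 in Cas9 wild type and 0 in both RGM libraries. The highest in H3K27ac was chr5:122887001-122888000 in Kdm2b, a histone demethylase gene, at 2.32. Over the median of the bins within 10 kb, the Gm8909 bin was 1.78-fold with anti-FLAG and the Kdm2b bin 1.05-fold with H3K27ac. Neither thus stood far above its neighbours. Over the median of the bins within 10 kb, 16 members (1.35%) reached 4-fold with anti-FLAG, 21 (1.77%) with wild-type anti-GZF1 and 14 (1.18%) with H3K27ac. Of all autosomal bins 0.137%, 0.149% and 0.171% did. The rule set a lower limit on the first 2 of these densities. It did not use H3K27ac, but members were chosen for coverage in the same line, so this count is not independent of the rule either. The difference was not tested. The highest with anti-FLAG was at Gm7697 (chr8:69498001-69499000), with a density of 0.772 over a background of 0.0368. The 10 highest with anti-FLAG had backgrounds of 0.0368 to 0.221, so the bins around them were nearly empty in Cas9 as well. The 10 highest with H3K27ac had backgrounds of 0.063 to 0.315, and several bins were in both lists.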

How the data were processed

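Reads per 1 kb bin of mm10 were analysed for 8 libraries with 10.1 to 94.2 M reads each. Per the submitters' processing notes, cutadapt, Bowtie2 2.5.4, SAMtools and deepTools were used, and how duplicates and poorly mapped reads were filtered is not given in the sources used here. The authors deposited estimated counts of reads (expected counts) per bin, not scaled to depth, and 100% of the values were multiples of 0.05. Each library was divided by its autosomal mean. Members were merged at gaps of 5 kb or less and joined to the RefSeq gene and promoter tables of GRCm38.p6. Ratios compare RGM with Cas9 for the same antibody, on counts rounded to whole reads. Intervals are 95% exact (Poisson for densities, Clopper-Pearson for shares and ratios) and a count of 0 allows 3 reads. No test was run, because each group has 1 library.

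The members and gene lists were chosen with earlier results of these data known. The rule for named genes took the genes in the 15 regions with most members, every Skint gene, up to 4 genes per listed family, the 25 protein-coding genes with the largest share of member bins, and the 10 highest bins over local background for anti-FLAG and H3K27ac, of which those of most weight are printed. Sntg1 and Sgcz, the blocks and the member bins of highest density were chosen after their values were seen. The counting rule was tested on simulated data. Alternatives were other limits, scaling by the median or by chromosome, an input filter, 1 RGM library alone and other merging gaps. Python 3.11.15 with numpy 2.4.6, pandas 2.3.3, scipy 1.17.1 and matplotlib 3.10.9 was used.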

Additional observations from a re-analysis of the deposited data

Results flagged for a closer look

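On chromosome X, which the autosomal rule leaves out, 90 of 171,032 bins met the same limits (0.0526%, against 0.0481% of autosomal bins), in 74 regions, and 0 met them with the lines exchanged. This was picked up as a signal in data outside the main measurement. The median density over all bins of chromosome X was 0.640 in Cas9 anti-FLAG and 0.378 in RGM anti-FLAG, so the bins of this chromosome start from a lower level in RGM.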

How the results depend on the processing

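No paired analysis was possible because each group has 1 library in the table and the labels carry no shared replicate numbers, and no replicate could be left out for the same reason, whereas each RGM library was left out of the rule in turn. With a limit for missing of 0.05 there were 749 members in 514 regions, the longest 25 kb. With 0.2 there were 2991 in 2015 regions, the longest 134 kb, in 551 genes. With a limit for present of 0.4 there were 3256 in 1967 regions, the longest 137 kb, in 538 genes, and the H3K27ac median was 0.567. With 0.8 there were 415 in 310 regions, the longest 25 kb, in 101 genes, and the control and H3K27ac medians were 0.958 and 0.854. Scaling by the autosomal median gave a longest region of 114 kb. With RGM anti-FLAG alone to define missing there were 3304 members in 1908 regions, the longest 113 kb, in 582 genes, and 610 of these bins were in the Skint interval. With RGM wild type alone there were 20,963 in 18,241 regions, in 3941 genes, with an H3K27ac median of 0.819. Merging at 1 kb and 20 kb gave longest regions of 11 and 568 kb, and at 100 kb, added after seeing the data, 494 regions, the longest 1452 kb. Of the other planned recalculations, 65 counted as kept within the limits set, and these limits were wide for some results. Among these 65 were 1492 members in 935 regions with scaling by the autosomal median, against 1185 and 775. The limit of 0.05 gave 156 genes and the input filter 196, against 234. In none of the recalculations was a member at 0.1 or less in the control. In the knockout 0.0334% were with the limit of 0.2 and 0.00477% with RGM wild type alone. An average bin holds 3.93 reads in the input and 8.61 in RGM wild type, and this depth limits what 1 bin shows in these 2 libraries.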

Other observations

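The control and knockout libraries of the Cas9 line differed on chromosome 4 up to about the start of Skint4, inside the Skint cluster. In the 1 Mb windows from 111000001 and 112000001 the control density was 1.13 and 0.764, and the knockout density 0.741 and 0.756. Cas9 wild type had 0.896 and 0.739 there. Cas9 anti-FLAG fell from 0.944 to 0.777 and the input from 0.922 to 0.760 between these windows, whereas the knockout did not fall. The ratio of control to knockout changed from 1.52 to 1.01. Which of the 2 libraries carried this change cannot be told from these values. In windows of 1 Mb the control to knockout ratio of density was 1.29 to 1.61 in all 8 windows from 104000001 to 112000000 and 0.976 to 1.05 in the 10 that follow. Nearer the border it was 1.53 (1.5 to 1.55) over the 1 Mb before Skint8, 0.968 (0.941 to 0.996) from the start of Skint4 to the end of Skint9, and 1.03 (1.01 to 1.05) over the 1 Mb after Skint11. In 20 kb windows it was 1.24 (1.11 to 1.38) from 112060001 and 1.12 (0.996 to 1.26) from 112080001 on chromosome 4. The RGM anti-FLAG density fell from 0.453 to 0.0548 between the windows from 112020001 and 112060001, so both steps lay next to the start of Skint4. Each group has 1 library, and no explanation was tested.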
